A study of Mus musculus with 8 samples.

Results

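Aminoacyl-tRNA synthetase genes were examined for H3K36me3, the trimethylation of lysine 36 of histone H3, in reprogramming mouse fibroblasts. The members were all protein-coding GENCODE M21 genes on the 19 autosomes whose names follow the synthetase nomenclature, and 36 of 20722 genes were analysed. Of these, 20 encode cytosolic enzymes (Aars, Cars, Dars, Eprs, Farsa, Farsb, Gars, Hars, Iars, Kars, Lars, Mars, Nars, Qars, Rars, Sars, Tars, Vars, Wars and Yars), and 16 with names ending in 2 encode mitochondrial enzymes (Aars2, Cars2, Ears2, Fars2, Hars2, Iars2, Lars2, Mars2, Nars2, Pars2, Rars2, Sars2, Tars2, Vars2, Wars2 and Yars2). The naming rule itself uses no measured value, although the family was picked with earlier results of these data known.

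The study asked how vitamin B12 supplementation alters H3K36me3 while OCT4, SOX2, KLF4 and MYC (OSKM) are induced. Mouse embryonic fibroblasts (MEFs) from 1 E13.5 embryo, Clone 1 in the labels, were kept in iPSC medium for 72 h, and each condition gave 1 H3K36me3 library and 1 input library. MEF received neither agent, MEF B12 received 2 µM vitamin B12, OSKM received doxycycline, and OSKM B12 received both. The cells are i4F MEFs, which carry a doxycycline-inducible OSKM cassette in every condition. The study had MEFs of several embryos and focused on the culture it calls MEF 1, which reprogrammed more efficiently than the others. A culture chosen in that way need not stand for other embryos. The labels give the doxycycline dose as 1 µg/ml. The methods of the study give it in mg/ml. The protocols print the antibody target as H3K3me3, whereas the series title and the study call the mark H3K36me3, the name used here. In these lists, between 2.27% and 2.78% of all promoters overlapped a peak. In such bulk samples, fewer cells carrying the mark cannot be told apart from less mark per cell. With 1 library per condition there was no replicate check. No p-value is given, and the intervals printed for some values cover counting error only.

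Aminoacyl-tRNA synthetases attach each amino acid to its tRNA, the step that fixes the genetic code in translation. The cytosolic enzymes serve the ribosomes of the cytoplasm, and a separate set of nuclear genes encodes the enzymes that serve the mitochondrial ribosome. Gars and Kars each encode both forms from a single gene, and mitochondrial glutaminyl-tRNA is made by an amidotransferase instead of a dedicated synthetase. H3K36me3 is deposited by SETD2, which travels with elongating RNA polymerase II, so the mark lies along the bodies of transcribed genes and is usually thin at their starts.

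After filtering, the 4 H3K36me3 libraries held between 29046913 and 33399267 tags and the inputs between 34524486 and 36150875. The numbers of autosomal broad peaks were similar, between 64364 and 67234, but these peaks spanned 91.8 Mb in OSKM against 150 Mb in MEF and 163 Mb in both MEF B12 and OSKM B12. Of 8 fibroblast markers, 7 had at least 10% of the body in peaks in every library, among them Col1a1 with at least 93.9%, and Twist1 had no peak. Bodies of epithelial and endothelial markers had no peak. Of the blood markers, Ptprc had no peak and Cd68 lay in a peak that also spans the neighbouring Eif4a1. Of the neural markers, Sox10 had no peak, and Tubb3 was covered by up to 31.7% in MEF B12 but had no peak in OSKM. Of the pluripotency genes Nanog, Pou5f1, Esrrb and Zfp42, a peak was called only on Zfp42, over 2.42% of its body in OSKM.

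For each gene, the covered share is the percentage of the body, taken as the longest protein-coding transcript, that lies in peaks. The scaled pileup is the authors' mean number of overlapping fragments in a peak per 1000000 tags of the library, averaged over the covered bases. The density is the scaled pileup summed over the body and divided by its length, with bases outside peaks counted as 0. A gene was called marked when at least 10% of its body was covered in at least 1 library.

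All 20 cytosolic and 12 of 16 mitochondrial synthetase genes were marked, which makes 32 of 36 members against 46.4% of all protein-coding genes. The mitochondrial genes Fars2, Mars2, Nars2 and Wars2 stayed below 10% in every library. Covered to at least 50% in all 4 libraries were 22 members, 18 cytosolic and 4 mitochondrial, where 25.3% of all marked genes reached that level. Densities among the top 25% of marked genes in all 4 libraries were found for 21 members, 17 cytosolic and 4 mitochondrial, against 20.0% of marked genes.

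The cytosolic bodies were the more covered set in every library. Their median covered share was 80.4% in MEF and 80.8% in MEF B12, against 70.5% in OSKM and 81.1% in OSKM B12, and that of the mitochondrial bodies was 52.6%, 57.5%, 28.4% and 56.7% in the same order. As a mean over the 4 libraries, the medians were 78.0% and 50.1%, a difference of 27.9 percentage points. The counting range of this difference was wide, from -0.284 to 56.1 points (95%, binomial, from the middle gene of each set counted in fragment lengths), and took in 0. With only peaks of −log10 q of at least 5, q being the adjusted significance from the peak caller, it was 46.3 points. The 12 mitochondrial bodies of at most 50 kb had a median of 54.8%. The cytosolic median includes bodies of up to 70.9 kb, since no length limit was applied to that set. A part of length in the difference was not tested. Within each set, longer bodies tended to be less covered, with Spearman correlations across genes between -0.14 and -0.37 in the 4 libraries. These are descriptions over 20 and 16 genes of the same libraries.

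The peaks themselves were also taller over cytosolic genes. The median scaled pileup of the cytosolic set was 0.752 in MEF and 0.868 in MEF B12, against 0.535 in OSKM and 0.904 in OSKM B12, whereas the mitochondrial set had 0.445, 0.543, 0.431 and 0.655. Over the 4 libraries, the cytosolic median was 1.48 times the mitochondrial one. The gap between the sets was narrowest in OSKM, where peaks of both sets were low.

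**Figure D1:**
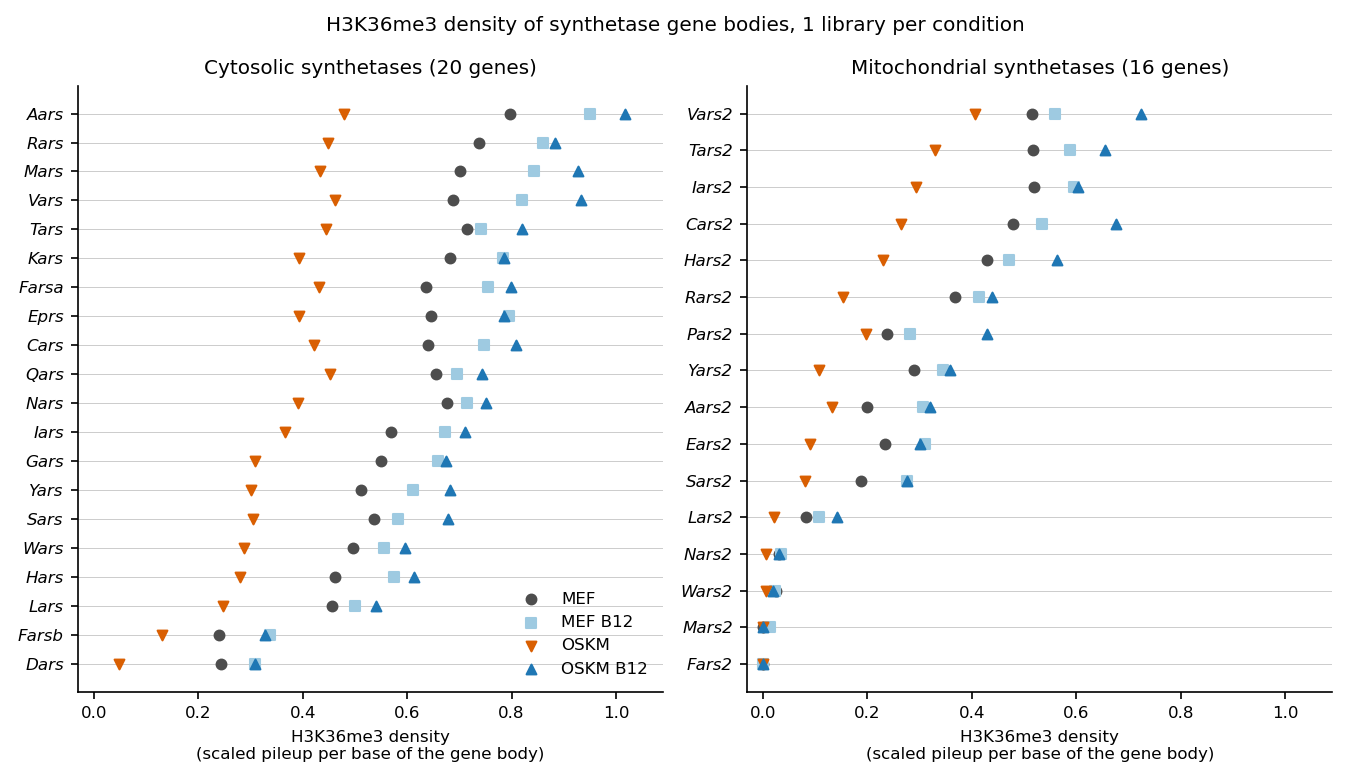
H3K36me3 density, in scaled pileup per base of the gene body, for 20 cytosolic (left) and 16 mitochondrial (right) synthetase genes ordered by their mean over the libraries, with 1 point for each of the 4 libraries. The OSKM point is the lowest for every marked gene, Aars reaches 1.02 in OSKM B12, and the 4 unmarked mitochondrial genes sit near 0.

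Aars, which charges alanine (chr8:111033902-111057664, plus strand, mm10), was the densest member. Its density was 0.797 in MEF and 0.951 in MEF B12, against 0.478 in OSKM and 1.02 in OSKM B12. The body was a single peak in every library except OSKM, where it was split into 4. About 5.58% of this body overlaps the gene Exosc6. Rars, the arginine enzyme (chr11:35808381-35834506, minus strand), was the most covered member, with 94.5%, 94.9%, 83.8% and 93.1% in the order MEF, MEF B12, OSKM and OSKM B12. Its densities in that order were 0.737, 0.861, 0.448 and 0.884. OSKM was the low library for both genes, and the other three conditions lay close together in cover.

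Mars and Vars, for methionine and valine, completed the 4 densest cytosolic genes. Densities of Mars were 0.701 in MEF and 0.844 in MEF B12, against 0.434 in OSKM and 0.927 in OSKM B12. Vars had 0.688, 0.819, 0.462 and 0.933 in the same order. The peak over Mars runs past the gene end into the stress gene Ddit3 in all 4 libraries, and about 82.5% of its bases lay in the Mars body in MEF B12. The peak over Vars also touched Vwa7 in every library.

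Dars and Farsb stood at the lower end of the cytosolic set. Dars, the aspartate enzyme (chr1:128363707-128417359, minus strand), had a density of 0.244 in MEF and 0.309 in MEF B12, against 0.0488 in OSKM and 0.309 in OSKM B12. Farsb, the beta subunit of the phenylalanine enzyme (chr1:78417975-78488859, minus strand), had 0.240, 0.336, 0.131 and 0.328. The alpha subunit gene Farsa, whose product works in the same complex, was denser than Farsb in every library, with 0.636, 0.754, 0.430 and 0.798. The Farsa body is 12.3 kb long and that of Farsb 70.9 kb, and 3.3% of the Farsb body overlaps Sgpp2.

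Lars and Hars, for leucine and histidine, came next. Lars had densities of 0.456, 0.499, 0.248 and 0.540, and Hars had 0.462, 0.574, 0.280 and 0.613, in MEF, MEF B12, OSKM and OSKM B12. Hars and Hars2 are arranged head to head and their first bases overlap, but no peak was called over that shared start. Hars shared its peaks with Dnd1 in every library, and with Wdr55 as well in every library but OSKM.

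Among mitochondrial genes, Vars2, Tars2, Iars2 and Cars2, for valine, threonine, isoleucine and cysteine, were the densest. Vars2 (chr17:35655634-35667592, minus strand) had a density of 0.515 in MEF and 0.559 in MEF B12, against 0.406 in OSKM and 0.723 in OSKM B12. Tars2 had 0.518, 0.589, 0.329 and 0.655, and Iars2 had 0.518, 0.596, 0.293 and 0.603. Their levels in MEF were near those of cytosolic Wars, 0.497, and Yars, 0.511. Cars2 followed with 0.479, 0.534, 0.264 and 0.677, and its peaks ran on into Naxd, as those of Iars2 did into Rab3gap2, so that 71.5% and 71.1% of the peak bases in MEF lay in the synthetase bodies.

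At the other end, Fars2, Mars2, Wars2 and Nars2 carried little mark that was detectable at this depth. Fars2, a body of 420 kb, had 1 peak of 0.292 kb in MEF that ran past the gene end, with 0.26 kb in the body, 1 of 0.291 kb in MEF B12 and none in the induced cultures. Mars2, a gene of 1 exon, had a single peak in MEF B12, over 3.90% of its body, and none elsewhere. Wars2 was covered by 5.94%, 4.37%, 1.35% and 3.89%, and Nars2 by 7.37%, 7.84%, 1.45% and 6.35%, in MEF, MEF B12, OSKM and OSKM B12. Absence from a peak list does not mean that the mark was absent.

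Pairing the enzymes by amino acid gave 17 pairs over 16 amino acids, since the bifunctional glutamyl-prolyl enzyme Eprs faces both Ears2 and Pars2 and both subunits of the phenylalanine enzyme face Fars2. The cytosolic gene was denser in all 4 libraries in 17 of 17 pairs. It was also more covered in all 4 libraries in 14 pairs, and the mitochondrial gene was more covered in all 4 in 0. The cytosolic gene was the longer in 11 pairs.

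The widest gaps were those of methionine, with mean covered shares of 83.4% for Mars and 0.974% for Mars2, and of asparagine, with 86.4% for Nars and 5.75% for Nars2. Large gaps were also seen for tryptophan, 77.7% for Wars and 3.89% for Wars2, and for leucine, 70.8% for Lars and 19.8% for Lars2. In the middle of the range, alanine had 81.6% for Aars and 51.2% for Aars2, and arginine 91.6% for Rars and 58.4% for Rars2. Isoleucine, threonine and valine had gaps of at most 2.53 percentage points. For valine the order was turned, with 78.3% for Vars and 78.7% for Vars2, although Vars was the denser gene in each library.

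**Figure D2:**
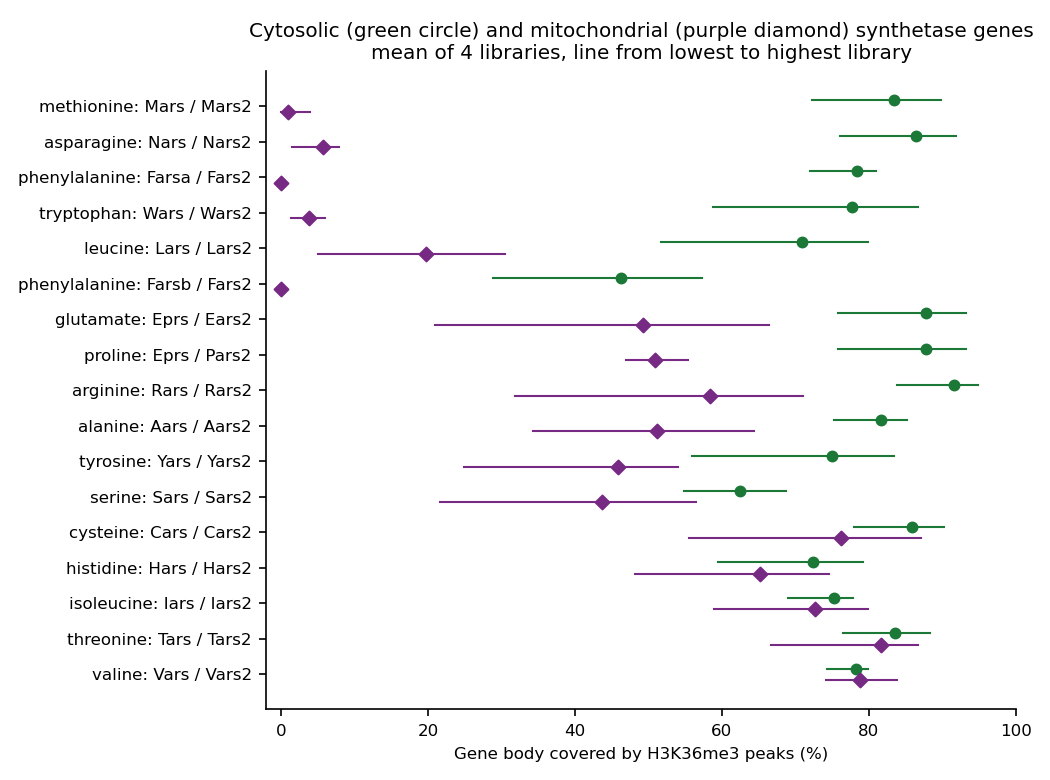
Covered share of the gene body (%) for 17 pairs of cytosolic (green circles) and mitochondrial (purple diamonds) synthetase genes, ordered by the difference of their means, with the mean of 4 libraries as the symbol and the lowest and highest library as the line. The gap runs from 82.4 percentage points for methionine to -0.486 for valine.

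The multi-tRNA synthetase complex is a large particle that holds several cytosolic synthetases together, here Lars, Iars, Mars, Qars, Rars, Kars, Dars and Eprs. Its 8 members had a median covered share of 81.7% in MEF, beside 80.4% for the 12 other cytosolic genes, and their range took in both Rars and Dars. The medians of members and other cytosolic genes were thus close. Its scaffold genes Aimp1, Aimp2 and Eef1e1 were covered by 71.7%, 49.4% and 69.2% in MEF.

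In OSKM, every marked member had a lower density than in MEF, as did 96.8% of all marked genes. The density ratio, with 0.05 added to both values, had a median of 0.624 over the 32 marked members, 0.629 for the cytosolic and 0.589 for the mitochondrial genes. Over all 9619 marked genes the median was 0.616, close to that of the members. A fall by at least 1.5-fold was found for 23 of 32 members, 15 cytosolic and 8 mitochondrial, and for 66.8% of all marked genes. At 2-fold, 4 members passed, and the share of all marked genes at that fold is not given here. The covered share fell in all 32, by a median of 14.0 percentage points, and in 93.4% of all marked genes, by a median of 13.7 points. With only peaks of −log10 q of at least 5, of which OSKM had 2166 and MEF 10010, the median density ratio of the members was 0.244. The matching median of all marked genes is not given here.

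Dars had the largest fall among the marked members. Its covered share was 48.1% in MEF and 60.2% in MEF B12, against 10.8% in OSKM and 57.8% in OSKM B12. The 21 peaks in MEF became 10 short ones in OSKM. The ratio of OSKM to MEF was 0.336, or 0.200 when nothing was added to the densities (0.177 to 0.226, 95% range of the counting error). The bases in peaks in all 4 libraries made up only 9.51% of the Dars body, and over these the scaled pileup was 0.548 in MEF and 0.569 in MEF B12, against 0.462 in OSKM and 0.578 in OSKM B12. Each base takes the mean of its whole peak. Cover fell far more than scaled pileup, so most of the change in density lay in bases that left the peak list.

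The next largest falls were those of Yars2 and Rars2, for tyrosine and arginine, with ratios of 0.462 and 0.487. Yars2 had densities of 0.290 in MEF and 0.345 in MEF B12, against 0.107 in OSKM and 0.358 in OSKM B12. Rars2 had 0.367, 0.415, 0.153 and 0.439. The smallest falls were also those of mitochondrial genes, 0.859 for Pars2, 0.807 for Vars2 and 0.729 for Aars2. With nothing added, the ratio of Pars2 was 0.829, and its counting range, 0.630 to 1.09, took in 1. Mitochondrial ratios ran from 0.462 to 0.859. Cytosolic ratios ran from 0.336 for Dars to 0.712, and those of the cytosolic genes other than Dars lay between 0.588 and 0.712.

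Pars2, the proline enzyme (chr4:106651098-106655280, plus strand), is a body of only 4.18 kb with 1 peak in each library. Its densities were 0.237 in MEF and 0.281 in MEF B12, against 0.196 in OSKM and 0.430 in OSKM B12. The peak in OSKM B12 ran 22.1 kb past the gene end into Ttc4, and 8.91% of its bases lay in Pars2, so that the pileup given for Pars2 there is largely that of the neighbouring sequence. Aars2 had densities of 0.200, 0.306, 0.132 and 0.320. Its values with vitamin B12 lay above MEF in both cell states.

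**Figure D3:**
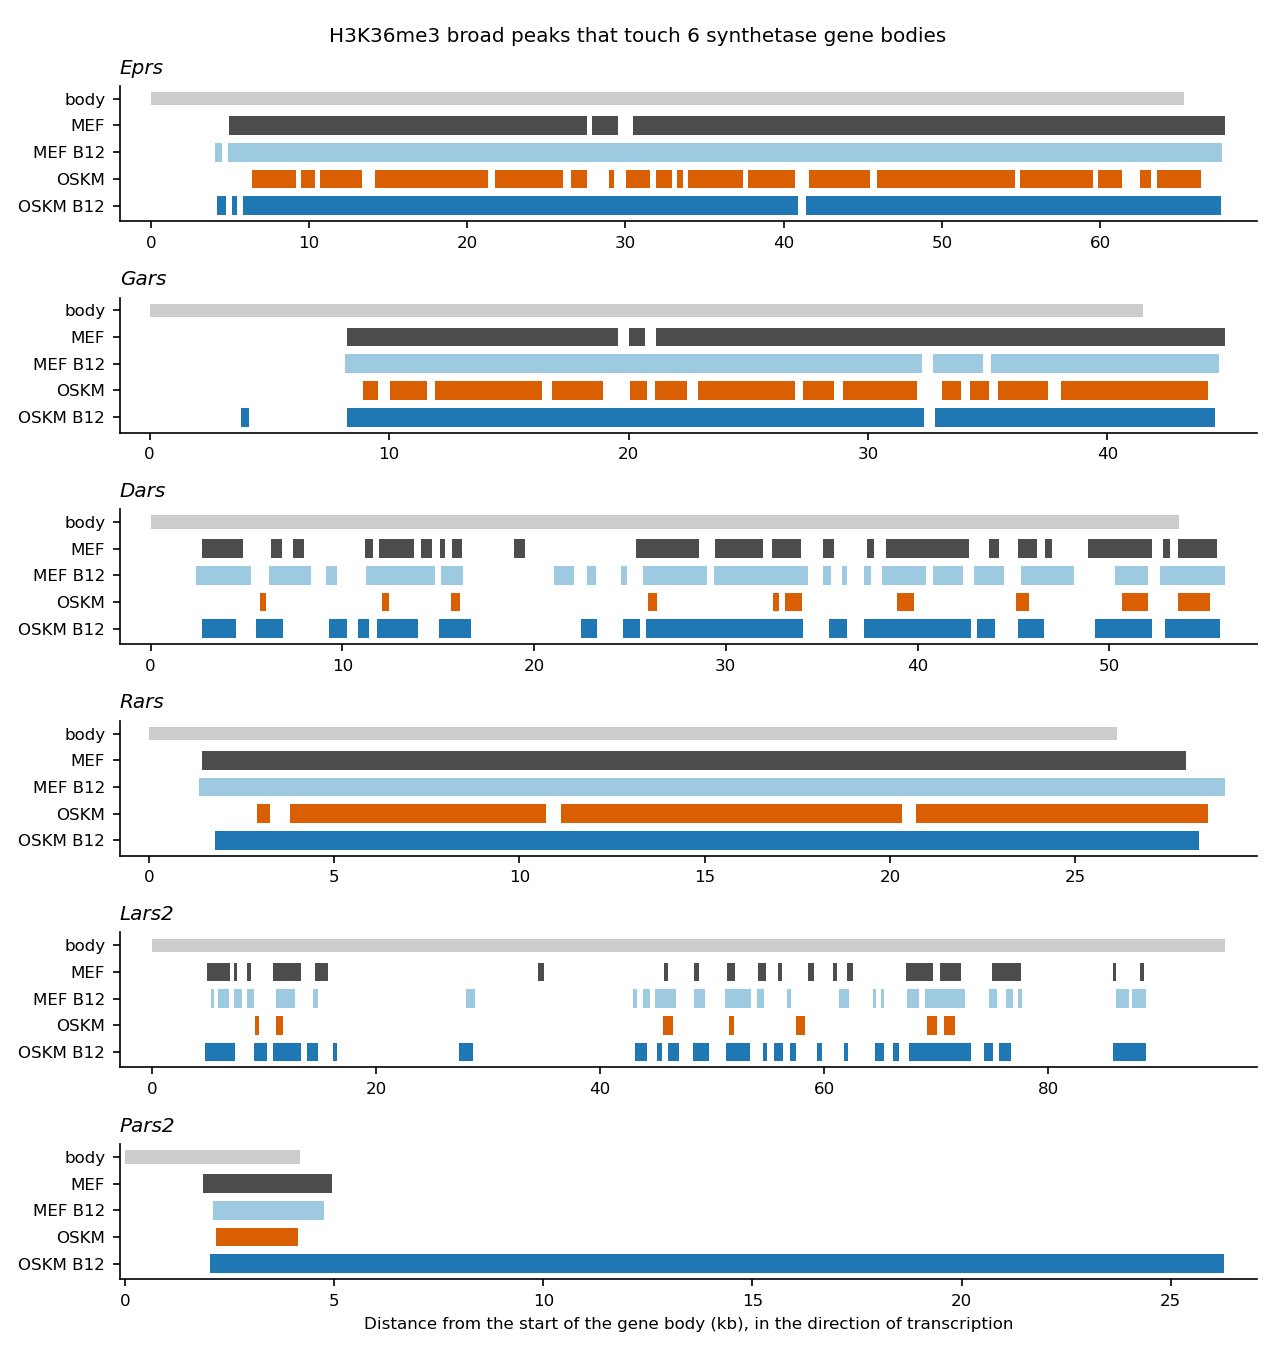
Broad peaks (coloured bars) in the 4 libraries that touch Eprs, Gars, Dars, Rars, Lars2 and Pars2, against the distance in kb from the start of the body (grey bar), each gene on its own scale. Eprs has 3 peaks in MEF and 18 in OSKM, Dars keeps 10 short peaks in OSKM, and the Pars2 peak of OSKM B12 ends 22.1 kb beyond the gene.

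The loss of cover over cytosolic genes in OSKM came with a splitting of long peaks. Cytosolic bodies held 149 peaks in OSKM, against 89 in MEF, 85 in MEF B12 and 83 in OSKM B12. All protein-coding bodies together had 64211 in MEF and 63212 in OSKM. Peaks over initiation and elongation factor genes rose from 280 to 341, and those over mitochondrial ribosomal protein genes from 180 to 194. Cytosolic bodies with a single peak numbered 1 in OSKM, against 9, 7 and 7 in the other libraries, and the same count over all genes is not given here. Eprs (chr1:185363044-185428360, plus strand) was covered by 90.5% in MEF, where it held 3 peaks, and by 75.8% in OSKM, where it held 18, and the B12 cultures had 93.3% in 2 peaks for MEF and 91.7% in 4 peaks for OSKM. Gars (chr6:55038007-55079500, plus strand), for glycine, had 3, 3, 13 and 3 peaks, with cover of 78.0%, 78.3%, 63.6% and 79.8%. Over all mitochondrial genes the number of peaks was 81 in MEF and 86 in OSKM, while their cover fell. This total joins opposite changes. In bodies of at most 50 kb the number rose from 47 to 74, and in longer bodies it fell, as from 19 to 7 in Lars2. Mitochondrial bodies with a single peak numbered 4 in MEF and 1 in OSKM.

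Bases called in every one of the libraries are the same stretches, but each takes the mean pileup of its whole peak, which can reach beyond them. A base called in OSKM is also by that choice one where OSKM is high. The shared bases amounted to 362 kb in 20 cytosolic genes and 97.6 kb in 14 mitochondrial genes. On these bases the scaled pileup in OSKM was below that in MEF in 20 of 20 and 14 of 14 genes, with median ratios of 0.730 and 0.846. The peaks that hold the shared bases were thus lower on average in OSKM, by less than the density. The shared stretches alone were not measured, and the same count over all marked genes is not given here.

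With vitamin B12 during OSKM induction, all 32 marked members were denser than in OSKM alone, as were 98.8% of all marked genes. The ratio of OSKM B12 to OSKM had a median of 2.00, with 1.92 for the cytosolic and 2.25 for the mitochondrial genes and 1.97 for all marked genes. All 32 passed 1.5-fold, as did 93.5% of all marked genes, and 16 passed 2-fold. With only peaks of −log10 q of at least 5, of which OSKM B12 had 13087, the median ratio of the members was 8.07. Matching values of all marked genes at 2-fold and at this q are not given here. On the shared bases, each given the mean of its peak, the median ratios were 1.68 for cytosolic and 1.51 for mitochondrial genes. No gene was lower there.

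Dars had the highest ratio, 3.63, followed by Lars2, for leucine, with 2.66 and Yars2 with 2.60. Lars2 (chr9:123366927-123462664, plus strand) was covered by 19.3% in MEF and 24.4% in MEF B12, against 5.06% in OSKM and 30.4% in OSKM B12, in 19, 24, 7 and 22 short peaks. The lowest ratios were 1.58 for Qars, the glutamine enzyme, 1.70 for Vars2 and 1.76 for Tars, the cytosolic threonine enzyme. Qars had densities of 0.654, 0.696, 0.451 and 0.744, and Tars had 0.715, 0.742, 0.445 and 0.819. OSKM was again the lowest library for both. The comparisons of OSKM with MEF and of OSKM B12 with OSKM share the OSKM library, which was the lowest for all marked members.

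Set against MEF, the density in OSKM B12 was higher for all 32 members, with a median ratio of 1.24. A higher density was also found for 90.9% of all marked genes, whose median ratio was 1.20. With fold enrichment in place of pileup, 31 members were higher and 1 was lower. Cover was higher for 23 members and lower for 9, and higher for 71.0% of all marked genes. Nars, the asparagine enzyme, had the lowest ratio, 1.10, and Pars2, with the long peak described above, the highest, 1.67.

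Without doxycycline, the density ratios lay closer to 1. The ratio of MEF B12 to MEF had a median of 1.16 over the members and 1.16 over all marked genes. None of the 32 passed 1.5-fold (0 members), against 4.65% of all marked genes. With only peaks of −log10 q of at least 5, 6 members passed, and with 0.01 added to the densities 1 did. No matching shares of all marked genes are given here. The ratio was above 1 for the 32 members and for 90.5% of all marked genes, and highest for Aars2, 1.42, Sars2, for serine, 1.37, and Farsb, 1.33. With nothing added to the densities, counting ranges took in 1 for Tars (0.962 to 1.12), Qars (0.948 to 1.19), Nars, Vars2, Hars2, Pars2 and Yars2. The direction of these ratios also depended on the scaling. With pileup not divided by tags, 23 of 32 were higher and 9 lower and the median of all marked genes was 1.05, and with fold enrichment in place of pileup, 30 were higher and 2 lower. The fall in OSKM and the rise in OSKM B12 over OSKM held for all 32 members under both scalings. Cover was higher in MEF B12 for 21 members and lower for 11, and higher for 70.5% of all marked genes.

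**Figure D4:**
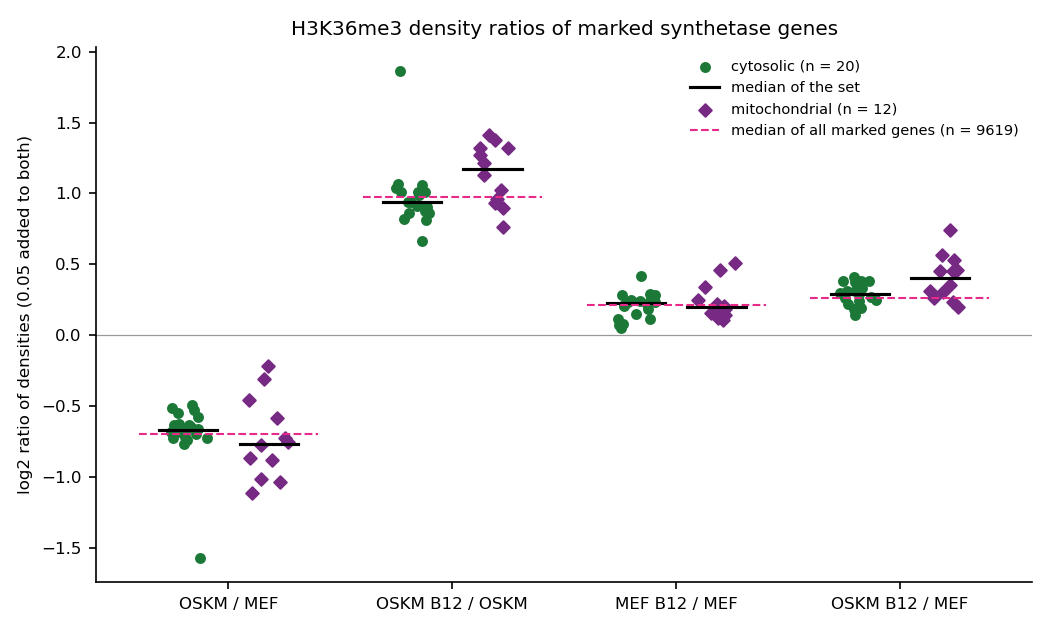
Log2 ratios of H3K36me3 densities, with 0.05 added to both values, for 20 cytosolic (green circles) and 12 mitochondrial (purple diamonds) marked synthetase genes in 4 comparisons, with the median of each set (black line) and of all 9619 marked genes (dashed line). All points lie below 0 for OSKM over MEF and above 0 for OSKM B12 over OSKM, and the lowest and highest points of those comparisons are Dars.

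Along the body, the mark began well inside each gene. No member had its first base in a peak in any library, and the same count over all genes is not given here. The nearest peak to a start began 1.27 kb into a cytosolic and 1.35 kb into a mitochondrial body, and the median distance for cytosolic genes was 2.96 kb in MEF and 2.75 kb in MEF B12, against 3.22 kb in OSKM and 2.55 kb in OSKM B12. The gene end lay in a peak for 18, 18, 16 and 18 of 20 cytosolic genes. It did so for 9 of 15, 11 of 16, 8 of 14 and 11 of 14 mitochondrial genes with a peak. The same share over all marked genes is not given here. Peaks over cytosolic ends ran a median of 1.84 kb further in MEF and 1.19 kb in OSKM.

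Cytosolic cover rose steeply and then stayed level. In MEF, the first 20% of the cytosolic bodies had a mean cover of 32.6% and the last 20% had 91.0%, and in OSKM these were 19.2% and 80.4%. For marked mitochondrial genes the values were 25.6% and 77.7% in MEF, and 11.4% and 58.5% in OSKM. All marked genes had 13.0% and 70.8% in MEF, and 7.21% and 51.2% in OSKM. Among 20 equal bins, the best covered bin of the cytosolic genes was the 11th or 12th, and that of all marked genes was the 19th. For marked mitochondrial genes it was the 14th, 15th or 20th. The later cytosolic bins were nearly level, so the place of their highest bin says little. In MEF the 11th had 94.6% and the 19th 93.6%, and in OSKM the 12th had 86.4% and the 18th 86.1%.

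**Figure D5:**
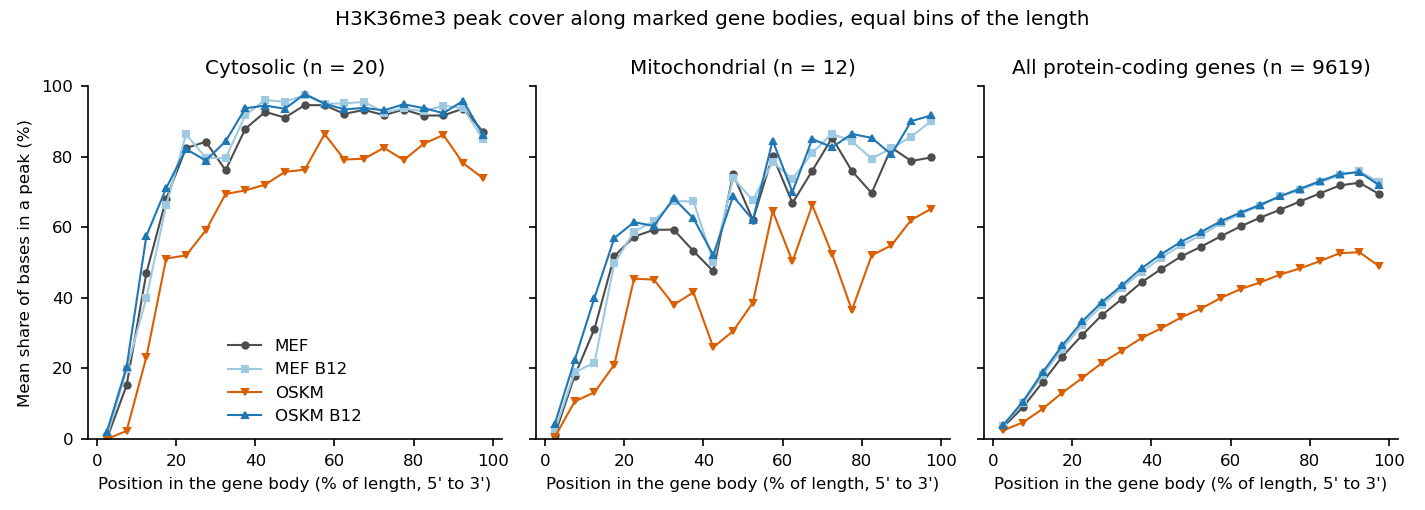
Mean share of bases in a peak (%) in 20 equal bins from the start to the end of the body, for 20 cytosolic, 12 mitochondrial and all 9619 marked protein-coding genes, with a line for each of the 4 libraries. Cytosolic genes reach 94.6% in MEF by the 11th bin, all marked genes 72.6% in the 19th, and OSKM is the lowest line in every panel.

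The median cover of exons was above that of introns in both sets. Single genes could differ, and in MEF introns were the more covered in Aars, Qars, Rars and Tars2 among others. The median exon cover of cytosolic genes was 89.3% in MEF and 81.8% in OSKM, and the intron cover was 78.9% and 68.2%. Mitochondrial genes had 65.0% and 47.4% in exons, and 51.4% and 22.01% in introns.

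The promoters lie in the stretch without peaks. RefSeq sequences (GRCm38.p6) from 250 bases before to 50 after the start were matched for 13 cytosolic and 14 mitochondrial members. None of these overlapped a peak in any library, and only 2.27% to 2.78% of all promoters did. Their lack of peaks is therefore not particular to the synthetases. They were searched on both strands for TGATGNAA, the core of the element through which ATF4 raises transcription of synthetase genes when amino acids are short. The letters were present in 5 of 13 cytosolic promoters (Aars, Gars, Iars, Tars and Yars) and in 0 of 14 mitochondrial ones, against 3.83% of all 31365 promoters. Upstream sequences are shown for 3 cytosolic genes that hold the letters and for the mitochondrial counterparts of 2 of them, to set the enzymes of the same amino acid side by side, with capitals marking the matched letters, here in the reverse orientation TTNCATCA.
Aars, chr8:111033592-111033841, plus strand: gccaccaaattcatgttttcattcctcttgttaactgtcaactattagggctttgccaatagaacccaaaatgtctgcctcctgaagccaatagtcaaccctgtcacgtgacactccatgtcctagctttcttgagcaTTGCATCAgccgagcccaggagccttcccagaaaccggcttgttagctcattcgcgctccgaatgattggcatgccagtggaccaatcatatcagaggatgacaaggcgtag
Aars2, chr17:45506591-45506840, plus strand: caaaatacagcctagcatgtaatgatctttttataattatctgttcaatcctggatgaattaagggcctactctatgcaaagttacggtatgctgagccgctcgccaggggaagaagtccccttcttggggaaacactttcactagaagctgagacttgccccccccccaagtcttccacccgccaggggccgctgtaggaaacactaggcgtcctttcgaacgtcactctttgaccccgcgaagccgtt
Tars, chr15:11399659-11399908, minus strand: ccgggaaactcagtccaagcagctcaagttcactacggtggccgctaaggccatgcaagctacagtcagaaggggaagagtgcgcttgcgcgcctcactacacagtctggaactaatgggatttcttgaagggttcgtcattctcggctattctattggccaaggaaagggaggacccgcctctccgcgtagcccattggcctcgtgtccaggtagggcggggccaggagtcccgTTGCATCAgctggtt
Tars2, chr3:95754978-95755227, minus strand: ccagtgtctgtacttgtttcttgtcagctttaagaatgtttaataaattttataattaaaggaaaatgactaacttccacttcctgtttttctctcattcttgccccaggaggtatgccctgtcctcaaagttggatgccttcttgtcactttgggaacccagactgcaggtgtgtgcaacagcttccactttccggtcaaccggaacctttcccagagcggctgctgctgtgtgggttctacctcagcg
Gars, chr6:55037751-55038000, plus strand: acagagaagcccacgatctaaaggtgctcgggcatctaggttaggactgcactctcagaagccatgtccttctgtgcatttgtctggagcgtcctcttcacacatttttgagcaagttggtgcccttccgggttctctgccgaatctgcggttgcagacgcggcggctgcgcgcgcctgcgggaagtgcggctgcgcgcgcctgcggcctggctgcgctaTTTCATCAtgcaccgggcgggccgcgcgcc

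In Iars and Yars the letters lie just after the RefSeq start, as does a second match in Aars, and 30 bases around them are shown for that reason.
Aars, chr8:111033840-111033869, plus strand: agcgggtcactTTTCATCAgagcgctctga
Iars, chr13:49682126-49682155, plus strand: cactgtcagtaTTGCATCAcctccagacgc
Yars, chr4:129189895-129189924, plus strand: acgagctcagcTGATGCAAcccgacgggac

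A match of letters is a description of the sequence and not a measured site. The 5 genes with the letters had density ratios of OSKM to MEF from 0.599 for Gars to 0.670 for Iars. The other cytosolic genes ran from 0.336 for Dars to 0.712 for Qars. Only 13 of 20 cytosolic promoters were matched, so some of these other genes may hold the letters. A relation between the letters and the mark was not tested. E-boxes (CACGTG) were found in 4 cytosolic promoters and 1 mitochondrial promoter, against 7.14% of all promoters.

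The comparison sets place the synthetases among other genes of translation. Mitochondrial ribosomal protein genes, 78 in number with 71 marked, had a median covered share of 51.3% in MEF, and 64 initiation and elongation factor genes, 60 of them marked, had 67.7%. Medians of the mitochondrial synthetases, 52.6%, and of the mitochondrial ribosomal proteins were thus close, and that of the cytosolic synthetases, 80.4%, was above both. Density ratios of OSKM to MEF had medians of 0.607 and 0.625 in these sets, and those of OSKM B12 to OSKM 1.99 and 1.94.

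Of 15 partner genes of tRNA charging, 13 were marked, 8 fell by at least 1.5-fold in OSKM and 11 rose by as much in OSKM B12 over OSKM, where 66.8% and 93.5% of all marked genes did. The amidotransferase subunit genes Gatb, Gatc and Qrsl1, which complete mitochondrial glutaminyl-tRNA, were covered by 4.75%, 42.8% and 22.1% in MEF. Of 18 amino acid response genes driven by ATF4, 15 were marked, with 6 falling and 13 rising in the same comparisons, beside the same shares of all marked genes. Their median covered share in MEF was 29.6%, below that of either synthetase set.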

How the data were processed

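H3K36me3 ChIP–seq was analysed in MEFs from 1 embryo in 4 conditions, through the 4 broad peak lists that the authors deposited. Reads were aligned to mm10 with Bowtie 0.12.9, duplicates were removed, and peaks were called per library against its own input with MACS2 2.2.6 at q cut-offs of 0.05 and 0.1. The pileup deposited by the authors is a signal, the mean fragment coverage of a peak. The fold enrichment is the authors' ratio of pileup to the local input, and the authors' significance columns are −log10 of the p-value and q-value. Coverage outside the peaks was not used here, so depth decides which bases enter a list, and without a spike-in the scaling rests on total tags.

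With Python 3.11, numpy 2.4.6 and scipy 1.17.1, peaks were intersected with GENCODE M21 bodies (at least 1 shared base), pileups were expressed per 1000000 tags, and density ratios used a pseudocount of 0.05, which dampens changes of thinly marked genes. RefSeq promoters were matched where their start lay within 1000 bases of the GENCODE start on the same strand. A broad peak has 1 mean pileup, so a gene sharing a peak takes part of its neighbour's value. Counting intervals (95%) come from estimated tags, leave out variation between cultures and immunoprecipitations, and treat tags as independent. In 200 simulated cases, overlaps computed from intervals were compared with a count of single bases, and 0 differed. Members and lists were chosen with earlier results of these data known. Another gene that meets the naming rule is not reported here and enters no count of members, so a count over all members covers the 36 genes analysed. All members could be named, with values for the 4 densest and 4 least dense of each set and the 3 extreme ratios at each end of the comparisons of OSKM with MEF and of OSKM B12 with OSKM. Other members were added to complete pairs or comparisons after their values were seen. Alternatives covered peak thresholds, merging, gene bodies, scaling, pseudocounts and the fold.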

Additional observations from a re-analysis of the deposited data

How the results depend on the processing

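Over 8 main results and 11 alternatives, 55 recomputed values stayed within the counting range or within 1.5 times the count, 22 moved and 0 reversed direction. Dropping peaks enriched less than 2-fold over input, or trimming all lists to the same length, left the 8 main results unchanged. The first kept 64792 of 64885 peaks in MEF and the second 64364 of 67234 in OSKM B12. The unchanged values are among the 55 and say little about stability. The cytosolic minus mitochondrial cover also counts among them at 46.3 points, because its counting range was wide, from -0.284 to 56.1 points. Restricting the lists to a −log10 q of 5 or more left 10010 peaks in MEF and 11734 in MEF B12, against 2166 in OSKM and 13087 in OSKM B12. The cytosolic minus mitochondrial cover became 46.3 percentage points, the pileup ratio of these sets 1.18, the median density ratios 0.244 for OSKM over MEF and 8.07 for OSKM B12 over OSKM, and the members higher in MEF B12 by 1.5-fold 6. Merging peaks at most 1 kb apart gave a pileup ratio of 1.59 and an OSKM B12 over OSKM ratio of 1.957. Fold enrichment in place of scaled pileup gave 1.36 for the pileup ratio, 0.634 for OSKM over MEF, 1.78 for OSKM B12 over OSKM and 1.13 for MEF B12 over MEF. Pileup not divided by tags gave 0.634, 1.80 and 1.05 for these 3 density ratios. A pseudocount of 0.01 gave 0.590, 2.12 and 1.18 for them and 1 member higher in MEF B12, and 0.1 gave 0.655, 1.84 and 1.14. At 2-fold in place of 1.5-fold, 4 members fell in OSKM and 16 rose in OSKM B12. Values of all marked genes at the stricter q, the other pseudocounts and 2-fold are not given here. The cause was not tested, except that fewer peaks pass the stricter q, a larger pseudocount pulls ratios towards 1, and a higher fold admits fewer genes. No paired analysis was possible because the conditions hold 1 library each.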

Other observations

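Genes beside the synthetases, chosen after their values were seen, also differed between the libraries. Cebpg, a C/EBP family gene whose product pairs with ATF4, was covered by 47.6% in MEF, 6.17% in OSKM, 42.4% in MEF B12 and 40.2% in OSKM B12. Its density ratio of OSKM to MEF was 0.234, below that of every marked synthetase gene. Shmt2, which makes glycine from serine in mitochondria, was the marked gene of the ATF4 list whose ratio lay above 1, at 1.07, and its covered shares in the same order were 35.1%, 51.2%, 57.9% and 51.1%. Eef1e1, a scaffold gene of the multi-tRNA synthetase complex, had the lowest ratio of the partner genes, 0.465, with covered shares of 69.2%, 32.0%, 70.5% and 72.3%.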
